A study of Mus musculus with 13 samples.

Results

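The variable (V) segments of the T cell receptor α chain (Trav) and β chain (Trbv) were described in cultured mouse Th17 cells. The deposited table listed 138 such segments among 21073 genes, with 114 Trav segments at chr14:52427928-53876752 and 24 Trbv segments at chr6:40891229-41558452 (GRCm38, the mm10 assembly). A segment was kept when 2 or more of the 10 Th17 libraries listed it at 1 RPKM (reads per length of gene and per assigned reads of the library) or above. This left 67 Trav and 22 Trbv segments, 89 in all. Each kept segment was expressed as a share, in percent, of the summed RPKM of the kept segments of its chain in the same library. The 47 Trav segments that were not kept included 8 listed at 0 in every Th17 library, and the 2 Trbv segments that were not kept, Trbv11 and Trbv18, are annotated as pseudogenes. The kept segments carried at least 97.5% of all Trav RPKM and at least 99.96% of all Trbv RPKM in every Th17 library. Just outside the rule lay Trav13d-4, whose second-highest RPKM was 0.977, and just inside it lay Trav10d, with 1.19.

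A developing T cell joins 1 V segment to a joining segment, with a diversity segment between them in the β chain, and the joined exon is spliced to a constant region to give the receptor mRNA. The V segment encodes the first and the second loops that contact peptide and MHC, and its 3′ end starts the third loop, CDR3, which meets the peptide. Expansion of clones that recognise an antigen raises the RNA of their segments, so segment shares are used as a coarse readout of the repertoire. RNA of V segments does not show which α chain was paired with which β chain, nor the CDR3 sequence. In bulk RNA, fewer cells with a segment and less receptor RNA per cell cannot be told apart.

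The mice were of the C57BL/6J strain, either wild type (WT) or DKI, a double knock-in of Stat5a and Stat5b in which STAT5 forms no tetramers. For the Th17 groups, mice received the myelin peptide MOG35-55 in complete Freund's adjuvant and no pertussis toxin. Spleen and lymph node cells taken at day 14 were cultured with the same peptide under Th17 conditions, and CD4+ T cells were sorted 3 days later. All 4 groups share this immunization and this culture. They were WT cells (n = 2), DKI cells (n = 2), DKI cells cultured without added CCL17 (n = 3, here "DKI without CCL17") and DKI cells cultured with CCL17, a chemokine ligand of CCR4 (n = 3, "DKI with CCL17"). Both CCL17 groups together are called the CCL17 experiment here, a name taken from their titles and not from a stated batch. In 3 further libraries, 1 each, bone marrow monocytes, spinal cord monocytes and spinal cord antigen-presenting cells came from DKI mice that received the peptide in adjuvant with pertussis toxin. The age of the mice, the dose of CCL17 and whether animals were pooled are not given in the sources used here, and p-values measure only the spread between libraries.

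Assigned reads, estimated from the size of a single read in the values, came to 12500000 to 20200000 per Th17 library. Of these, 993 to 2612 fell on Trav segments and 2672 to 7182 on Trbv segments, so shares of single Trav segments rest on fewer reads. Summed over 6 markers, CD4 T cell RNA lay at 1420 to 2050 RPKM in every Th17 library and CD8 T cell markers at 3.95 to 9.32 RPKM. Myeloid markers summed to 614 to 978 RPKM in the 6 libraries of the CCL17 experiment and to 18.2 to 80.1 in the 4 WT and DKI libraries. B cell markers summed to 57.1 to 90.1 and 6.45 to 15.5 RPKM respectively, and all 5 B cell and 6 myeloid genes were above 1 RPKM in at least 1 Th17 library.

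The β chain was led by Trbv13-2 (Entrez 100124675), Trbv19 (100124684), Trbv5 (100124661) and Trbv20 (100124685). Trbv13-2 belongs to a family of 3 with Trbv13-1 (100124673) and Trbv13-3 (100124677), and together the family held 22.6% to 27.9% of Trbv RPKM. The last 60 bases of these 6 segments are shown because they hold the germline start of CDR3. They lie on the plus strand at chr6:41121773-41121832 for Trbv13-2, chr6:41116409-41116468 for Trbv13-1, chr6:41130526-41130585 for Trbv13-3, chr6:41178989-41179048 for Trbv19, chr6:41062744-41062803 for Trbv5 and chr6:41188918-41188977 for Trbv20 (GRCm38, GENCODE M21). Capitals run from the codon of the conserved cysteine, taken as the last TGT in the final 24 bases.
Trbv13-2: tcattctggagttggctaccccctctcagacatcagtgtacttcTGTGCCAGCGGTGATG
Trbv13-1: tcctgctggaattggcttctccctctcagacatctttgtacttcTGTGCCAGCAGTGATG
Trbv13-3: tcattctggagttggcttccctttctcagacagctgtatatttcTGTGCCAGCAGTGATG
Trbv19: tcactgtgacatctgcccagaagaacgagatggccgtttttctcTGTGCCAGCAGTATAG
Trbv5: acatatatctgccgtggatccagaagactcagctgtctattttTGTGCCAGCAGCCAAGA
Trbv20: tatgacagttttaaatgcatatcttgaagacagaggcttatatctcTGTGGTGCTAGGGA

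Members of the Trbv13 family differed from each other at 24 to 41 of the last 270 bases, and no pair of Trbv segments reached 98% identity over that stretch. The Trav locus differs in this respect, because in this strain its middle part is present in several copies, named with the letters d and n. Of the 114 Trav segments, 72 had another Trav segment at 98% identity or more, and 28 of these were kept, against 39 of the 42 without such a copy. In all, 37 Trav segments were identical to another over the 270 bases, and only Trav5n-4 of these was kept. How the authors counted reads that match several copies is not given in the sources used here. Values of near-identical Trav copies are therefore uncertain, and the sums over numbered families are given beside them.

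Over the last 270 bases, which hold the V region without the leader, capitals mark the bases that differ within a pair. Shown are Trav12-2 and Trav14d-3-dv8, the leading Trav segments, each beside a copy, and the pair Trav7-4 and Trav7d-4. They lie on the plus strand at chr14:53616645-53616914 for Trav12-2 (Entrez 100043322), chr14:52916157-52916426 for Trav12d-2 (100043197), chr14:53078776-53079045 for Trav14d-3-dv8 (634322), chr14:53763425-53763694 for Trav14-3 (547330), chr14:53461469-53461738 for Trav7-4 (386450) and chr14:52770123-52770392 for Trav7d-4 (382180).
Trav12-2: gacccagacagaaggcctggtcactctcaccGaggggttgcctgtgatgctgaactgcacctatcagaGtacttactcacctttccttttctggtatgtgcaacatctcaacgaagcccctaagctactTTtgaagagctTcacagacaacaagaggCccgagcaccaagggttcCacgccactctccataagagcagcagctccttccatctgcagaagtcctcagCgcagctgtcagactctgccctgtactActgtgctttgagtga
Trav12d-2: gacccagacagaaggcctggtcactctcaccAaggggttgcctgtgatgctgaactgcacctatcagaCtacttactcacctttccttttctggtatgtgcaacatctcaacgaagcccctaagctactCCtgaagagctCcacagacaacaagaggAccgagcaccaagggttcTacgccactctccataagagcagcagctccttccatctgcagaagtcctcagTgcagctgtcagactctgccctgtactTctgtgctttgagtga
Trav14d-3-dv8: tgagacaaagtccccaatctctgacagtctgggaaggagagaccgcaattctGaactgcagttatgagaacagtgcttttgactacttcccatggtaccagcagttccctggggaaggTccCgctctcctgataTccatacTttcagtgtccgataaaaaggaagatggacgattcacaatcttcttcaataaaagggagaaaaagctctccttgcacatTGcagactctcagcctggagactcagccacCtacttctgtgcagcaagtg
Trav14-3: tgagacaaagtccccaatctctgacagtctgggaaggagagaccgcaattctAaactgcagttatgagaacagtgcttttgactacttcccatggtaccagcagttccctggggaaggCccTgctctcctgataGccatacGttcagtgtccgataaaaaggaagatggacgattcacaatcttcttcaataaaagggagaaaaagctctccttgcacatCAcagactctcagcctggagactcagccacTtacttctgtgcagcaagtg
Trav7-4: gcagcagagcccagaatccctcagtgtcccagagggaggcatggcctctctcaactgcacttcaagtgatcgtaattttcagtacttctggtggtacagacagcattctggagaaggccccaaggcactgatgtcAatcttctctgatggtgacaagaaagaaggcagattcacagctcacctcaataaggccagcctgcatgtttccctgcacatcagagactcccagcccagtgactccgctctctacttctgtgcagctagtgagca
Trav7d-4: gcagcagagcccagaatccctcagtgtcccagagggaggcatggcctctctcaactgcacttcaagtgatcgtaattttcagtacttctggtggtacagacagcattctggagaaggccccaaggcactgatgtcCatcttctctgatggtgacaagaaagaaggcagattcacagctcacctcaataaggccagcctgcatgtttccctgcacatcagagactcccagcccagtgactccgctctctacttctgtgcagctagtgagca

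Trav12-2 differed from Trav12d-2 at 9 bases, and Trav14d-3-dv8 from Trav14-3 at 8 bases. Trav7-4 and Trav7d-4 differed at 1 base. Trav12-2 was listed at 11.3 to 38.9 RPKM, whereas Trav12d-2 and its identical copy Trav12n-2 did not pass 0.642 RPKM in any Th17 library.

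Use of the β chain was concentrated on few segments. The 5 leading Trbv segments held the first 50% of the mean share, and the 8 leading ones held 67.2%. Trbv13-2 had a mean share of 14.2% and ranked first or second in all 10 libraries. Its share was 12.7% and 13.4% in the WT libraries, 13.9% and 10.8% in the DKI libraries, 12.5%, 15.9% and 16.0% without CCL17, and 14.3%, 16.1% and 16.5% with CCL17. It was the leading segment in 7 libraries, and Trbv19 led in the other 3, which were both DKI libraries and replicate 1 without CCL17. Trbv19 stood at 7.72% and 10.01% in WT cells, 15.2% and 11.9% in DKI cells, and 11.1% to 13.8% in the CCL17 experiment. Trbv5 held 7.30% to 12.6% and ranked between the second and the fourth place.

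Trbv20 differed between replicates of the WT group. It held 11.3% in WT replicate 1 and 5.42% in WT replicate 2, 4.74% and 6.78% in the DKI libraries, and 10.35% to 11.4% in all 6 libraries of the CCL17 experiment. WT and DKI libraries therefore overlapped for Trbv20. Behind these, Trbv13-1 (mean share 6.22%), Trbv13-3 (5.03%), Trbv16 (4.87%) and Trbv3 (4.71%) followed. Trbv16 encodes the β chain of a widely used MOG-reactive transgenic receptor, and its share lay between 3.44% and 6.75%, highest in WT replicate 2.

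**Figure D1:**
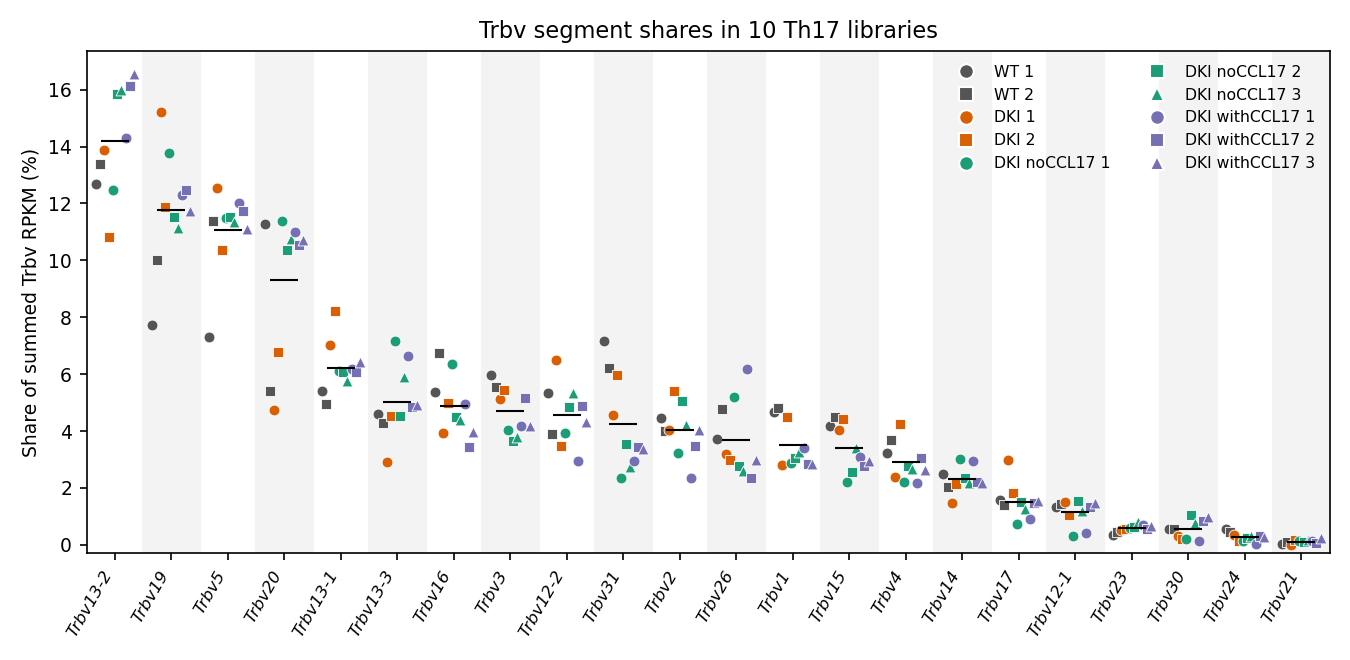
Share of the summed Trbv RPKM (percent, y axis) for each of the 22 kept Trbv segments (x axis, ordered by mean share). Each point is 1 library, colours give the group and shapes the replicate number, and black bars give the mean over 10 libraries; Trbv13-2 spans 10.8% to 16.5% and Trbv20 spans 4.74% to 11.4%.

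Use of the α chain was spread more widely. The 14 leading Trav segments held the first 50% of the mean share, and the 8 leading ones held 37.5%. Trav12-2 (mean share 8.80%) and Trav14d-3-dv8 (8.53%) stood above the others, of which the highest was Trav13-1 with 4.12%. Trav12-2 held 3.11% and 3.40% in WT cells and 5.74% and 3.75% in DKI cells. Without CCL17 it held 6.62%, 14.4% and 16.1%, and with CCL17 6.43%, 14.2% and 14.2%, in the order of replicates 1, 2 and 3. The replicate 1 libraries of both CCL17 groups thus lay near the DKI libraries, and the other 4 lay above 14%. The Trav12 family held 5.89% to 7.88% in WT and DKI cells, 9.09% and 9.19% in these replicate 1 libraries and 15.6% to 17.9% in the other 4. As a group mean the share was 12.4% ± 5.06 (SD, n = 3) without and 11.6% ± 4.48 (SD, n = 3) with CCL17.

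Trav14d-3-dv8, a segment that can be used by both the α and the δ chain, held 3.68% and 4.01% in WT cells and 9.65% and 5.66% in DKI cells. It held 13.2%, 8.16% and 11.2% without CCL17 and 10.05%, 10.2% and 9.48% with CCL17. Both libraries of the DKI group lay above both WT libraries for this copy. So did those of the CCL17 experiment, which holds no WT library for comparison. The Trav14 family, as a share of all listed Trav segments, held 14.2% and 16.5% in WT cells and 17.6% and 16.2% in DKI cells, which overlap, and 17.0% to 20.6% in the CCL17 experiment. Trav13-1, Trav3-3, Trav14n-3, Trav4-4-dv10, Trav6-5 and Trav8-1 had mean shares of 2.75% to 4.12%. The leading Trav segment was Trav9-2 in WT replicate 1, Trav14n-3 in WT replicate 2, Trav14d-3-dv8 in both DKI libraries and in replicate 1 of both CCL17 groups, and Trav12-2 in the remaining 4.

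**Figure D2:**
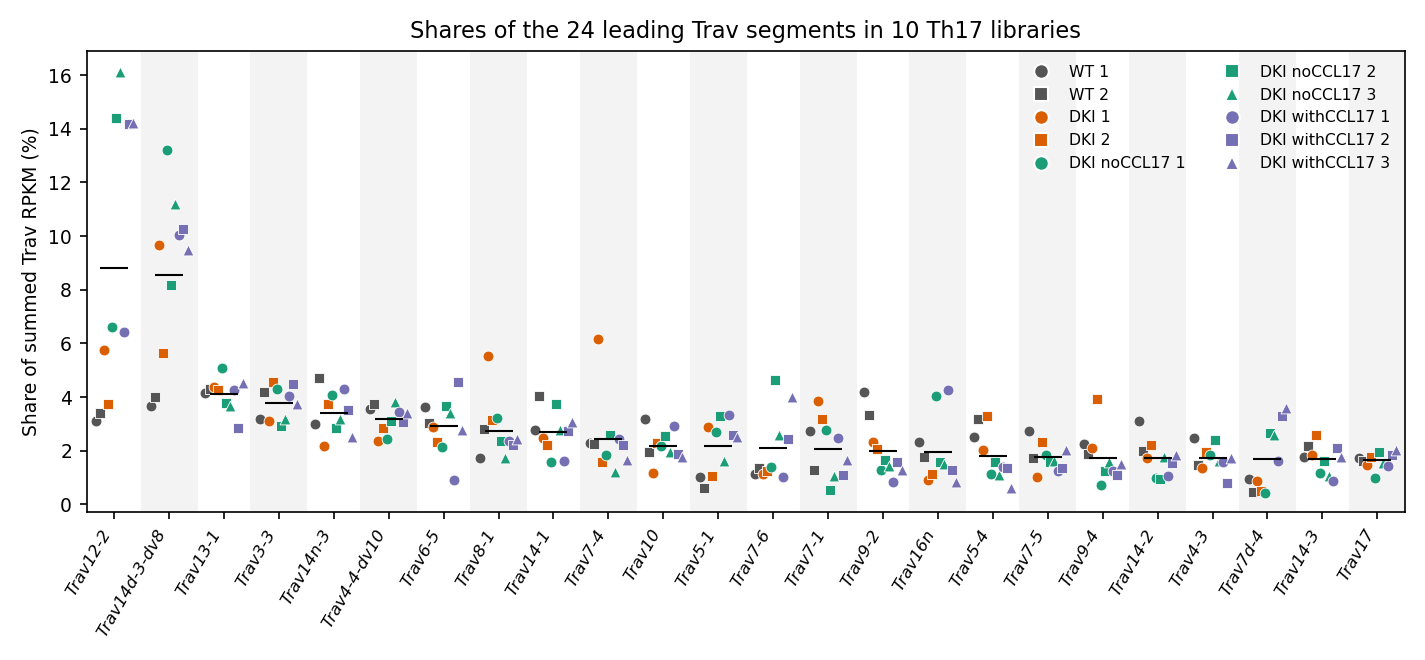
Share of the summed Trav RPKM (percent, y axis) for the 24 kept Trav segments with the highest mean share (x axis). Each point is 1 library, with colours for groups, shapes for replicate numbers and black bars for means; for Trav12-2 the replicate 2 and 3 libraries of the CCL17 experiment lie at 14.2% to 16.1% and all others at or below 6.62%.

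Summed by numbered family over all listed segments, Trav14 led with a mean share of 17.8%, before Trav7 (12.4%), Trav12 (11.2%) and Trav6 (10.1%). Lettered copies named d held 11.9% to 21.3% of Trav RPKM and copies named n held 8.599% to 15.5%. The Trav9 family, from which the α chain of the MOG-reactive transgenic receptor comes, held 10.8% and 10.1% in WT cells, 6.89% and 10.4% in DKI cells, and 4.70% to 6.19% in the CCL17 experiment. Of its 11 listed members 7 were kept, with Trav9-2 (mean share 2.00%), Trav9-4 (1.75%) and Trav9-1 (1.47%) ahead of Trav9n-4, Trav9d-1, Trav9d-4 and Trav9n-1. Trav11 and Trav11d, the segments of the invariant NKT cell receptor, were at most 0.202 and 0.287 RPKM and were not kept. The third copy, Trav11n, is annotated as a pseudogene and lay just outside the rule, with highest values of 1.21 and 0.920 RPKM. The Trav11 family held 0.512% and 0.495% in replicate 1 of the CCL17 groups and at most 0.342% in the other 8 libraries. Trav1, used by mucosal-associated invariant T cells, had a mean share of 0.860%, with 2.53% and 2.39% in replicate 1 of the CCL17 groups and 0.183% to 0.724% in the other 8 libraries. Along the locus, the 22 kept segments nearest to the constant region held 39.5% of the Trav share and the 23 farthest 26.3%.

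The evenness of use was summarised as the effective number of segments, the number of equally used segments that would give the same Shannon entropy. For Trav it was 50.5 and 51.5 in WT cells and 42.9 and 49.9 in DKI cells. It was 40.3, 36.9 and 34.99 without CCL17 and 43.8, 36.5 and 36.5 with CCL17, so the 5 lowest values were in the CCL17 experiment. For Trbv it was 16.6 and 16.4 in WT cells, 14.96 and 16.2 in DKI cells, 14.4 to 15.3 without CCL17 and 14.4 to 15.2 with CCL17. Both WT libraries were the most even for both chains, and both groups of the CCL17 experiment overlapped for both chains. Estimated Trav reads were 993 to 1316 per library in the CCL17 experiment and 1856 to 2612 in the WT and DKI libraries. The part of depth in these effective numbers was not tested, and differences counted in families are given at the end.

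**Figure D3:**
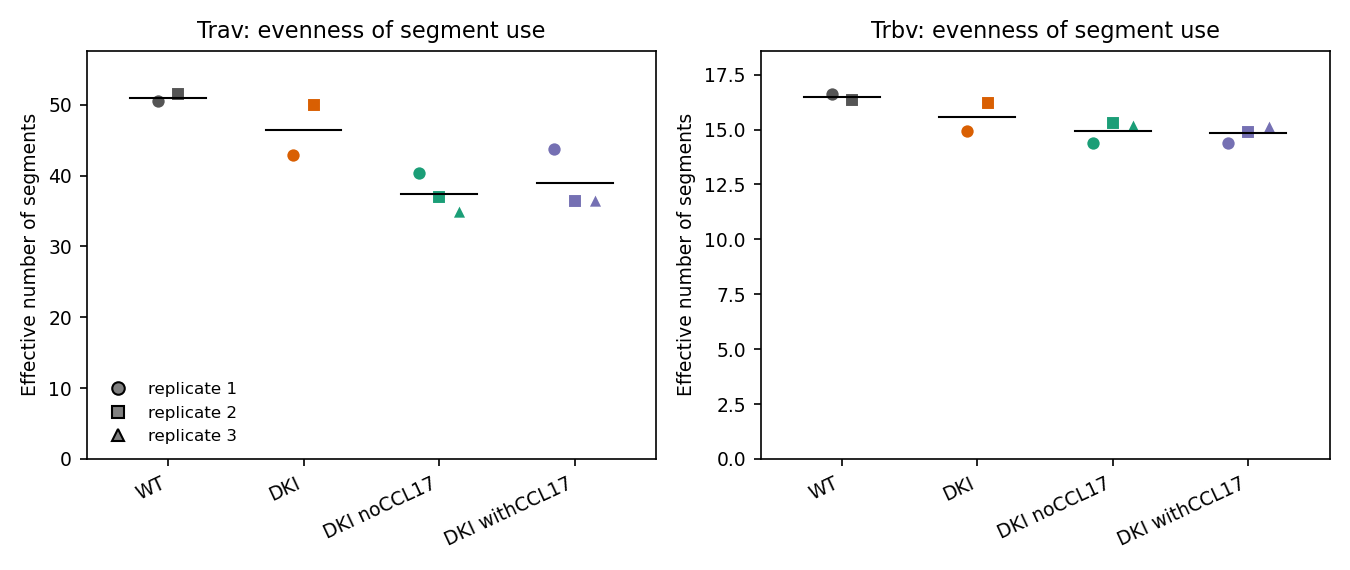
Effective number of Trav segments (left) and Trbv segments (right) in each Th17 library, by group, with shapes for the replicate number and black bars for group means; y axes start at 0. Trav values fall from 50.5 and 51.5 in WT cells to between 34.99 and 43.8 in the CCL17 experiment.

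Libraries were compared in pairs by the percentage of the chain's RPKM that would have to move to another segment to make the shares of both libraries equal. A chi-square value per degree of freedom on the estimated reads was set beside it, for which 1 is the level of counting noise. WT replicates differed by 10.7% for Trbv and by 14.3% for Trav, and DKI replicates by 13.8% and 21.2%. Pairs of 1 WT and 1 DKI library differed by 9.33% to 18.5% for Trbv and by 14.8% to 25.5% for Trav. Both within-group differences lay inside this range for Trbv, and for Trav the WT pair lay just below it and the DKI pair inside it. The Trbv use of DKI replicate 2 was closer to WT replicate 2 than to DKI replicate 1.

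In the CCL17 experiment both replicate 1 libraries stood apart from the other 4, which grouped neither by number nor by CCL17. Replicate 1 with and without CCL17 differed by 5.91% for Trbv and 13.9% for Trav, with chi-square values of 1.73 and 1.19 per degree of freedom. The 6 pairs among replicates 2 and 3 of both groups differed by 3.39% to 5.10% for Trbv (chi-square 0.490 to 1.32) and by 12.5% to 14.6% for Trav (1.33 to 1.63). The 8 pairs of a replicate 1 library with a replicate 2 or 3 library differed by 8.88% to 11.4% for Trbv (5.61 to 7.95) and by 23.5% to 27.96% for Trav (4.196 to 5.99). The closest Trbv pair was replicate 2 without and replicate 3 with CCL17 (3.39%), and replicate 2 without and with CCL17 differed by 4.08%. Over 786 and 790 genes with 1 annotated transcript, the chi-square values of replicates 2 and 3 were 1.56 without and 1.60 with CCL17. For Trbv, the pairs among replicates 2 and 3 lay near counting noise, whereas WT replicates gave 12.8 and DKI replicates 13.7. Whether these 4 libraries hold independent cultures was not tested. If they do not, p-values that count them as separate understate the uncertainty. Replicates 2 and 3 were counted as separate libraries throughout. Whether replicates 2 and 3 came from 1 pool of cells is not given in the sources used here.

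**Figure D4:**
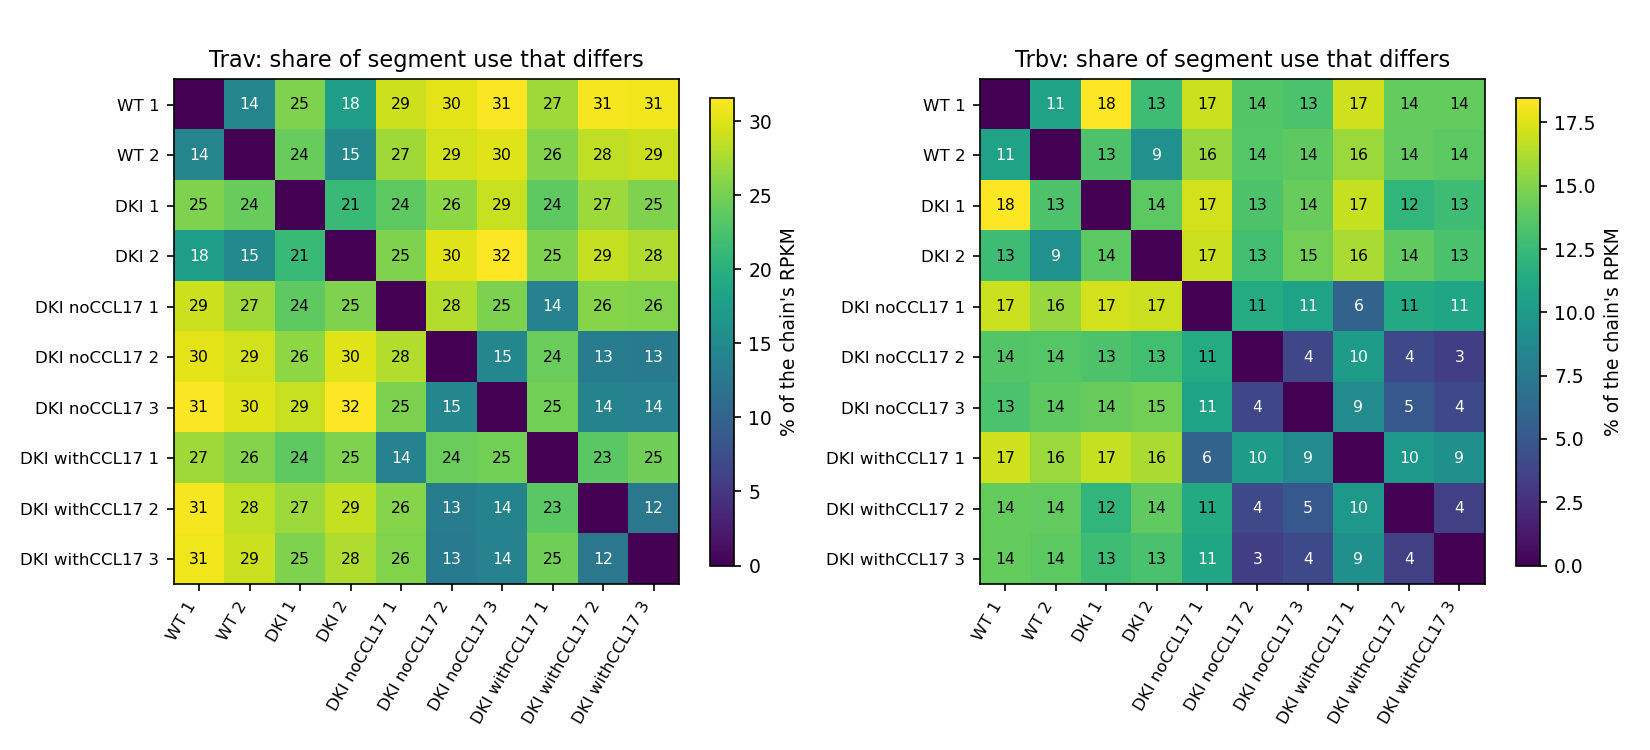
Percentage of the chain's RPKM that differs in segment use between each pair of the 10 Th17 libraries, for Trav (left) and Trbv (right); both axes list the libraries and each cell prints its value in percent. Dark cells join replicate 1 with and without CCL17 (13.9% and 5.91%) and replicates 2 and 3 of both groups (12.5% to 14.6% and 3.39% to 5.10%).

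The segments that set replicate 1 apart in the CCL17 experiment were chosen for naming after their values were seen. Trbv26 held 5.21% and 6.20% in the replicate 1 libraries and 2.34% to 2.98% in the other 4. Trbv13-3 held 6.65% and 7.17% against 4.53% to 5.90%. Trbv12-1 held 0.326% and 0.408% against 1.19% to 1.55%, and Trbv30 0.151% and 0.198% against 0.753% to 1.05%. For these 4 segments the replicate 1 libraries did not overlap the others in either group.

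For the α chain, Trav16n held 4.03% and 4.24% in the replicate 1 libraries and 0.841% to 1.56% in the other 4, and Trav7d-4 held 0.440% and 1.62% against 2.60% to 3.61%. Its copy Trav7-4, which differs at the 1 base shown above, held 1.85% and 2.43% against 1.21% to 2.58% and overlapped. In RPKM, 16 of 74 tested segments were higher in both replicate 1 libraries than in the other 4 (21.6%), beside 23.3% of all genes tested, and 17 were lower (22.97%), beside 28.8%. Separation of replicate 1 was therefore not more frequent among the tested V segments than among all genes. Summed over the Trav16 family, the replicate 1 libraries held 4.86% and 6.59% and the other 4 held 1.66% to 3.44%.

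The comparison of DKI with WT cells asked whether the loss of STAT5 tetramers went with another use of V segments. The ranking of segments by mean share was close in both groups, with a Spearman rank correlation across segments of 0.849 for 67 Trav segments and 0.948 for 22 Trbv segments, given as a description. Segments were tested with limma on log2(RPKM + 1) in a fit of all 10 Th17 libraries, with Benjamini-Hochberg adjustment over all 11078 genes tested. None of the 87 tested segments was called at an adjusted p under 0.05, and the smallest adjusted p was 0.124. Over all genes, 0.00% were called in either direction. At an unadjusted p under 0.05 there were 5 segments higher and 10 lower, beside 914 and 965 of all genes.

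Without being called, more segments lay lower than higher in DKI cells. The groups did not overlap for 31 segments that were lower (35.6%), beside 20.1% of all genes, and for 10 that were higher (11.5%), beside 19.9%. The median log2 fold was -0.246 for Trav and -0.217 for Trbv, beside 0.0318 for all genes. Summed Trav RPKM was 368 and 378 in WT cells and 300.5 and 335 in DKI cells, and summed Trbv RPKM was 895 and 1039 against 780 and 1020. Trac, the α constant region, had a log2 fold of -0.21 ± 0.10 (SE) with an adjusted p of 0.312 in limma. Taken relative to the chain total, the median of the segments was -0.0432.

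Trav9-2 was 15.2 and 12.3 RPKM in WT cells and 6.83 and 6.70 in DKI cells, a log2 fold of -0.92 ± 0.23 (SE) with an adjusted p of 0.142 in limma. Trav8d-1 was 2.75 and 4.65 RPKM in WT cells and 0.326 and 0.875 in DKI cells, a log2 fold of -1.55 ± 0.33 with an adjusted p of 0.124. Trav9n-1, annotated as a pseudogene, was 1.61 and 1.59 against 0.811 and 0.145 RPKM (adjusted p 0.143). For these 3 segments the WT libraries lay above both DKI libraries, and the difference did not pass the adjustment. Taken as shares of all listed Trav RPKM, the Trav8 and Trav9 families overlapped between the groups. For Trav8 the WT libraries held 4.08% and 6.20%, against 8.47% and 5.84% for the DKI libraries, and the Trav9 shares are given above. Because summed Trav RPKM was lower in DKI cells, these shares do not show whether the family sums in RPKM overlapped.

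Trav14d-3-dv8 was 13.3 and 14.8 RPKM in WT cells and 28.5 and 18.5 in DKI cells, a log2 fold of 0.67 ± 0.23 (SE) with an adjusted p of 0.205 in limma. Trav5n-4 had 1.57 and 2.26 RPKM against 3.49 and 4.25 (adjusted p 0.124), and Trav13d-1 0.338 and 1.06 against 1.53 and 2.89 (adjusted p 0.238). As shares of all listed Trav RPKM, the Trav14 family overlapped between the groups. The shares of the Trav5 family (3.91% and 4.30% against 5.99% and 5.55%) and the Trav13 family (8.78% and 8.45% against 9.23% and 9.05%) did not overlap. Summed Trav RPKM was lower in DKI cells, so a higher share need not mean a higher family RPKM. Trbv19 was 69.0 and 104 RPKM in WT cells and 119 and 121 in DKI cells, with a log2 fold of 0.50 ± 0.20 and an adjusted p of 0.268. Among the other Trbv segments whose groups did not overlap, Trbv13-1 and Trbv17 lay higher in DKI cells (log2 folds 0.43 and 0.51) and Trbv24, Trbv30, Trbv26, Trbv31 and Trbv13-2 lower (-1.01, -0.95, -0.54, -0.46 and -0.20), with adjusted p between 0.267 and 0.5999 in limma. Without DKI replicate 2 the DKI group holds 1 library, so no count is given for that fit. The median log2 fold of the segments was -0.384 there and -0.24 in the main fit.

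The comparison with and without CCL17 asked whether adding the chemokine during the culture went with another use of V segments. Rankings by mean share were closest here, with a rank correlation of 0.945 for Trav and 0.989 for Trbv across segments. With limma in the 6 libraries of this experiment, none of 74 tested segments was called, and the background was 0.00% of 11297 genes in either direction. At an unadjusted p under 0.05 there were 1 segment higher and 2 lower, beside 239 and 172 of all genes. The medians of the log2 folds were 0.0483 for Trav and -0.00283 for Trbv.

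The groups did not overlap for 3 segments. Trav21-dv12 was 1.25, 2.18 and 2.79 RPKM without and 2.85, 3.05 and 5.21 with CCL17, with a log2 fold of 0.61 ± 0.26 (SE) and an adjusted p of 0.999 in limma. Trav7d-3 was 1.86, 1.94 and 1.70 against 2.12, 2.08 and 2.48 RPKM, and Trav6-7-dv9 was 4.13, 3.54 and 4.26 against 3.43, 2.23 and 2.45 RPKM, both with an adjusted p of 0.999. This fit counts the difference between replicate 1 and the other replicates as spread. A limma fit with a replicate block, which takes out differences between replicate numbers, gave adjusted p of 0.128, 0.482 and 0.170 for these 3 segments. With the block, 12 of 74 segments lay at an unadjusted p under 0.05, beside 1524 of 11297 genes, and no segment was called. Of all genes, 5.20% lay higher and 4.28% lower without overlap, beside 2 and 1 of the 74 segments. Trbv13-2 had shares of 14.8% ± 2.00 without and 15.7% ± 1.19 with CCL17 (SD, n = 3 each). This spread includes the gap between replicate 1 and the other replicates. In the order of replicates the shares were 12.5%, 15.9% and 16.0% without and 14.3%, 16.1% and 16.5% with CCL17. The limma fit with the replicate block gave a log2 fold of 0.078 ± 0.050 (SE) and an adjusted p of 0.545.

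DKI cells without CCL17 and the DKI cells of the WT comparison carry the same genotype and, by the labels, no added CCL17. By their titles they form separate sets, and no batch is named, so set and any handling difference cannot be told apart. The rank correlation across segments was 0.762 for Trav and 0.927 for Trbv, the lowest of the 3 comparisons for each chain. Of 86 tested segments, 27 were called lower in the CCL17 experiment (31.4%), 17 Trav and 10 Trbv, beside 17.8% of 11507 genes. No segment was called higher, beside 15.4% of all genes. At an unadjusted p under 0.05 limma gave 1 segment higher and 36 lower, beside 2415 and 2687 of all genes. Counted in either direction, 31.4% of the segments and 33.2% of all genes were called. The groups did not overlap for 37 segments that were lower (43.0%), beside 29.6% of all genes, and for 3 that were higher (3.49%), beside 26.0%. The median log2 fold was -0.434 for Trav and -0.595 for Trbv, beside -0.0127 for all genes.

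Constant and signalling parts of the receptor were lower too. Of the 7 genes of the T cell receptor complex, 5 were called lower, among them Trac (log2 fold -0.46 ± 0.09), Trbc1 (-0.78 ± 0.17) and Trbc2 (-0.76 ± 0.12) with adjusted p of 0.0049, 0.00869 and 0.00259 in limma. Their summed RPKM was 2340 to 2600 in DKI cells and 1740 to 1890 without CCL17. Beside this, the myeloid markers named above summed to 18.2 to 29.7 RPKM in DKI cells and 645 to 978 without CCL17, and the part of other cell types in the lower V segment RNA was not tested. Dntt, which adds bases at the joints of segments, was 2.71 and 7.06 RPKM in DKI cells and 1.75, 1.05 and 0.803 without CCL17 (log2 fold -1.34 ± 0.33, adjusted p 0.0151). Of the 4 tested γ and δ segments, 1 was called lower.

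Relative to the chain total, 10 segments were called, and the median fold was -0.0212. The same shift was taken from every segment of a chain on the log2(RPKM + 1) scale. Because that scale understates changes of low segments, the shift overcorrects them and here pushes their folds upward. Of the 86 segments 7 were lower (8.14%), beside 17.6% of all genes, and 3 were higher (3.49%), beside 15.5%; the other genes were not rescaled in this fit. Trav5n-4 was lowest, with 3.49 and 4.25 RPKM in DKI cells and 0.598, 0.417 and 0.411 without CCL17. Its log2 fold was -1.72 ± 0.15 (SE) in RPKM and -1.33 ± 0.14 relative to the chain, with adjusted p of 0.000198 and 0.000452 in limma. Trav5n-4 is identical to Trav5d-4 over the 270 bases compared, so its reads could not be assigned by that stretch. The Trav5 family held 5.99% and 5.55% in DKI cells and 3.99%, 4.94% and 2.85% without CCL17. Trbv31, the only Trbv segment that lies in reverse orientation beyond the constant genes, was 35.6 and 61.0 RPKM in DKI cells and 14.7, 20.5 and 15.5 without CCL17. Its log2 fold was -1.43 ± 0.21 in RPKM and -0.83 ± 0.18 relative to the chain, with adjusted p of 0.00168 and 0.00848.

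Trbv3 was 39.95 and 55.5 RPKM in DKI cells and 25.3, 21.1 and 21.4 without CCL17, with a log2 fold of -1.03 ± 0.15 (adjusted p 0.00151 in limma), and remained called relative to the chain (-0.44 ± 0.11, adjusted p 0.0144). Trav6-4 (log2 fold -1.15 ± 0.21) and Trav9-4 (-1.43 ± 0.32) were called both ways as well, and Trbv15 (-0.60 ± 0.15) and Trbv13-1 (-0.32 ± 0.09) completed the 7 called lower relative to the chain, with adjusted p of 0.0176 and 0.0208. Trbv17 was 23.4 and 18.4 RPKM against 4.62, 8.62 and 7.04, a log2 fold of -1.52 ± 0.24 with an adjusted p of 0.00226, and it was not called relative to the chain. In the other direction, Trbv20 rose relative to the Trbv total (log2 fold 0.92 ± 0.26, adjusted p 0.0274 in limma), as did Trav8d-1 (1.13 ± 0.28, adjusted p 0.0149) and Trav7d-3 (0.68 ± 0.17, adjusted p 0.0159) relative to the Trav total. The Trav8 family lay the other way, with 8.47% and 5.84% in DKI cells and 4.99% to 5.29% without CCL17, and the Trav7 family overlapped (15.7% and 11.2% against 10.2% to 13.6%). In RPKM none of these 3 segments was called, and Trbv20 was 36.9 and 69.2 in DKI cells and 71.2, 59.8 and 60.8 without CCL17, and these groups overlapped. Trav16n, with 2.67 and 3.65 RPKM against 9.28, 3.72 and 3.66, was not called.

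Both comparisons that involve the DKI libraries share them. Trav5n-4 had a log2 fold of 0.75 in DKI against WT cells and -1.72 in DKI without CCL17 against DKI cells, and Trav8d-1 had -1.55 and 0.74. The count of 27 segments fell whichever library of the CCL17-free group was left out. It was 23 of 82, 18 of 86 and 15 of 83 without replicates 1, 2 and 3 (28.05%, 20.93% and 18.07%). All genes gave 30.8%, 23.8% and 22.2% there. Leaving out a DKI library leaves 1 in that group, so only the median log2 fold of the segments is given. It was -0.561 without DKI replicate 1 and -0.265 without DKI replicate 2 (main -0.455).

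**Figure D5:**
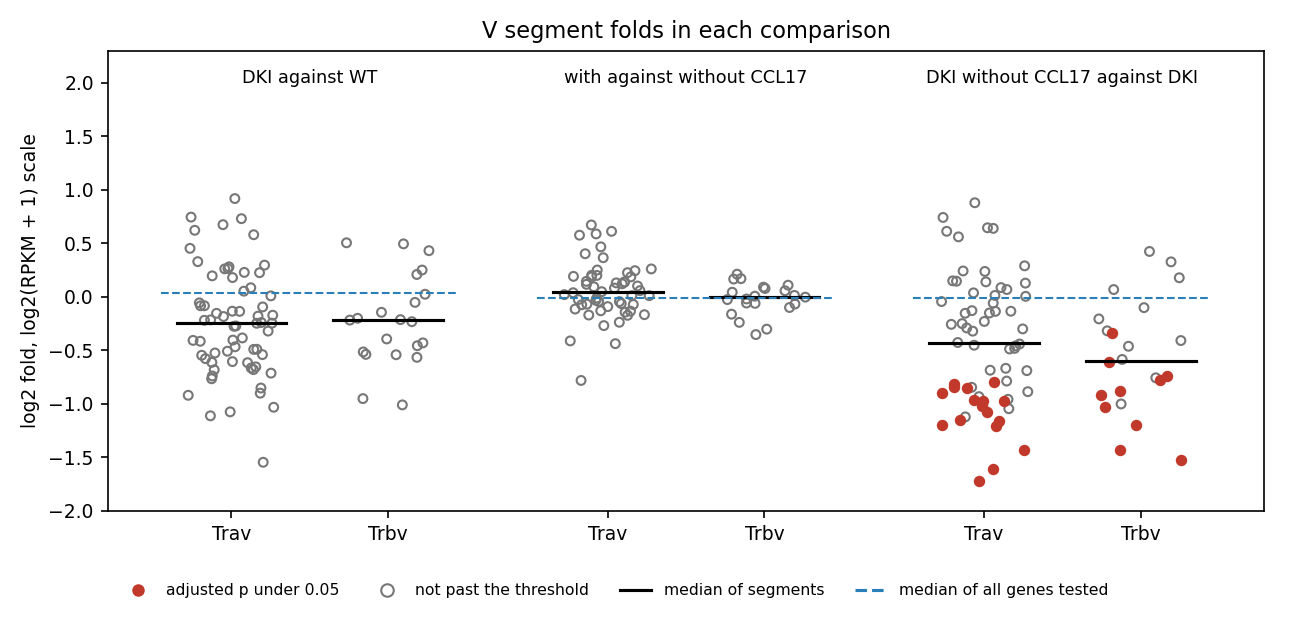
Log2 fold of each tested Trav and Trbv segment on the log2(RPKM + 1) scale (y axis) in the 3 comparisons (x axis). Filled red points passed an adjusted p under 0.05, black bars give the medians of the segments and dashed lines the medians of all genes tested; the 27 red points all lie below 0 in DKI without CCL17 against DKI, and the other comparisons hold none.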

How the data were processed

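RNA of 13 mouse libraries was sequenced from KAPA HyperPrep mRNA libraries, per the labels' protocols. The submitters' processing notes name Subread, featureCounts and build mm10; versions, annotation, strand and multi-mapping settings are not given in the sources used here. Deposited values are log2(RPKM + 1) made by the authors for 21073 genes, with 0.0001 in place of 0, and were turned back into RPKM. The column named MDC for DKI spinal cord was taken as the antigen-presenting cells, which the labels call monocyte-derived; the spinal cord monocytes have a column of their own, and no source spells out MDC. V segments were found by the symbol in the deposited table in any case, 13 of the 138 being in capitals there. The members and gene lists were chosen with earlier results of these data known.

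Depth was estimated from the steps of low values; among genes of 1 transcript with up to 5 reads, 73.4% to 78.2% of values lay within 0.1 reads of a whole number, where 20% would by an even spread. Segment reads used a counted length of 341.5 bases, the median over 60 segments. Read estimates, chi-square values and the floor of 3 reads cover counting error only.

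Genes that reached 1 RPKM in 2 or more compared libraries (in the CCL17 comparison, in 3 or more) were tested with limma 3.58.1 in R 4.3.3 (eBayes with a mean-variance trend, Benjamini-Hochberg adjustment, called at an adjusted p under 0.05). The CCL17 comparison used its own 6 libraries, and both other comparisons came from 1 fit of group means over the 10 Th17 libraries. Folds on the log2(RPKM + 1) scale understate changes of low genes. The procedure was tested on simulated data. Shares, Spearman rank correlations across segments and effective numbers are descriptions without a test. Equal replicate numbers in the CCL17 experiment had residual correlations across genes of 0.759, 0.487 and 0.499. Replicate 2 of 1 group with replicate 3 of the other gave 0.491 and 0.471, so the numbers set apart replicate 1 and not replicates 2 and 3 from each other. The replicate block there changed no segment call.

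Named are, per chain, the 8 segments with the highest mean share, the leading segment of each library, up to 3 per direction and comparison with the smallest p among those whose groups did not overlap, Trbv13-2, Trbv16, the Trav9 family, Trav11, Trav11d and Trav1; Trav11n, Trbv26, Trbv30 and the family sums were added after their values were seen. Sequences, gene types and coordinates are from GENCODE M21 (GRCm38). The myeloid libraries entered no comparison. Alternatives tried were another pseudocount, no filter, quantile normalization, segments relative to their chain total, no trend, a replicate block, other libraries in the fit, other share definitions and leaving out replicates. Leaving out replicate 1 of both CCL17 groups, and symbols in capitals, were chosen after seeing the data.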

Additional observations from a re-analysis of the deposited data

Results flagged for a closer look

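The myeloid libraries, 1 each and outside the comparisons, held V segment RNA above the floor of 3 reads in 5 of 6 sums. Summed Trav RPKM was 4.51 in the spinal cord monocytes (about 41 reads) and 2.89 in the spinal cord antigen-presenting cells (about 24 reads), whose column carries an abbreviation that no source spells out. Summed Trbv RPKM was 6.73 and 7.21 there (about 61 and 60 reads). These are 1.77%, 1.13%, 1.08% and 1.15% of the median over the Th17 libraries, and Trac stood at 1.31% and 1.35% of its Th17 median in the same libraries. In the bone marrow monocytes Trav was listed at 0, and the Trbv sum of 0.797 RPKM (about 9 reads) came from Trbv1 alone.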

How the results depend on the processing

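The counts of segments called changed most with the replicate block and with single libraries. For DKI against WT the main count of 0 became 12 with the replicate block (13.8% of segments, beside 11.6% of all genes) and 0 to 6 when 1 library was left out, with 6 without DKI replicate 2 (7.06%, beside 5.29%). For DKI without CCL17 against DKI the count of 27 became 46 with the replicate block (53.5%, beside 49.5%), 10 relative to the chain total (11.6%, beside 33.0% of all genes, which were not rescaled) and 10 to 23 when 1 library was left out (12.99% to 28.05%, beside 22.2% to 31.0%). No label says that equal numbers of the WT and DKI groups belong together, so the block there joins libraries that share only a number (residual correlation 0.419). For the CCL17 comparison the count was 0 under all alternatives run, with the replicate block included. The rank correlation for Trav in DKI against WT (main 0.849) was 0.936 with all listed segments, 0.968 by family and 0.787 to 0.845 leaving out 1 library. In DKI without CCL17 against DKI (main 0.762) it was 0.913, 0.952 and 0.700 to 0.767. For Trbv, leaving out 1 library gave 0.894 to 0.963 (main 0.948) and 0.886 to 0.944 (main 0.927). Summed by family, the difference in the effective number for Trav was -0.621 in place of -4.55 and -0.594 in place of -9.01, counted in families. Of 285 alternatives for 24 named folds, 270 kept direction and call, 13 gained and 2 lost the call, and none reversed. These include fits with 1 library in a group. All 24 folds were chosen from segments whose groups did not overlap. Leaving out libraries or changing the pseudocount, the trend or the libraries in the fit could therefore not reverse them. The cause of the shifts between settings was not tested. Depth limits single Trav shares, since a library holds 993 to 2612 Trav reads.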
